A study of Mus musculus with 80 samples.

Results

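The cytochrome P450 genes are described here as a family: every gene symbol in the count tables that starts with Cyp, a number, letters and a number, with 15 or more counts in at least 1 library, and with Cyp51 left out. Of the 103 symbols of that form 77 reached the minimum, among 32764 gene symbols counted in all, and 26 did not. The member closest to the minimum was Cyp3a57, with a highest count of 19, and the nearest symbol outside was Cyp2b19, with a highest count of 11. RNA was sequenced from 4 tissues of male C57BL/6J mice, namely brown fat (BAT), white fat of the inguinal depot (iWAT), muscle and liver, with 5 libraries for each of 4 genotypes in each tissue and 80 libraries in all.

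The 4 genotypes were wildtype (WT), homozygous FGF21 KO, homozygous UCP1 KO and homozygous double knockout of both genes (dKO). UCP1 is the uncoupling protein by which brown and beige fat make heat, and FGF21 is a hormone that fat and liver can release. All mice of all groups, WT included, were born and weaned at 30 °C, were moved at 10 to 12 weeks of age to room temperature and a high-fat diet for 3 weeks, and lost access to food for 2 to 3 h before tissue was taken. The knockouts were whole-body, so a change in one tissue can follow from loss of the gene in another. The labels spell the dKO with FGF12 in place of FGF21. Counts of Fgf21 lay between 0 and 3 in FGF21 KO and dKO libraries of all 4 tissues and between 353 and 1728 in BAT of UCP1 KO mice. Ucp1 was still counted in BAT of UCP1 KO mice, at 24291 to 60779 counts against 98548 to 216085 in WT, and in iWAT it was higher in UCP1 KO (3942 to 20264 counts) than in WT (109 to 776), so the count of Ucp1 alone does not check that label.

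Cytochrome P450 enzymes are heme proteins of the endoplasmic reticulum and mitochondria that insert an oxygen atom into lipids, steroids, vitamins and foreign compounds, with electrons passed to them by Por or by ferredoxin. The liver carries most of them: families 1, 2 and 3 clear foreign compounds, families 7, 8, 27 and 39 make bile acids from cholesterol, and family 4 hydroxylates fatty acids. Fat tissue uses a smaller set, among them enzymes for sterols, retinoic acid, fatty acid signals and small volatile compounds. Many of the liver genes are known targets of nuclear receptors (CAR, PXR, PPAR alpha, FXR) and of the AHR.

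The members lay on 14 chromosomes in the mouse genome build GRCm38. Of the 77, 56 stood in 8 clusters with gaps of no more than 1000000 bases between neighbours. The one with the most members was the Cyp2c cluster, with 13 on chromosome 19 from 39006940 to 40187286. It was followed by the Cyp2d cluster (9 members, chr15:82370527-82794452) and the cluster of Cyp2a, 2b, 2f, 2g and 2s genes (9 members, chr7:25802469-27133660). The nearest member to Ucp1 was Cyp4f18, 11.28 Mb away on chromosome 8, and the nearest to Fgf21 was Cyp2f2, 18.48 Mb away on chromosome 7. RefSeq names 4 members pseudogenes (Cyp2c53-ps, Cyp2d13, Cyp2d37-ps and Cyp4f41-ps). Coding sequences were compared within subfamilies for 73 members, and 13 of 163 pairs, with 17 members in them, were identical at 95% or more of their bases. The closest were Cyp4a12a with Cyp4a12b (98.5%) and Cyp2a4 with Cyp2a5 (98.4%), and reads of such pairs may have been split or dropped in the counting, so values of single genes among them are uncertain. Among the members called in BAT below, Cyp2c50 was in such a pair (96.1% with Cyp2c37), and Cyp2d9 was 93.3% identical to Cyp2d11. Cyp2c70 was 69.8% identical to its nearest relative, Cyp2c55, and Cyp4f13 was 84.1% identical to Cyp4f17.

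Because the clear differences between genotypes lay in BAT, the 250 bases before a RefSeq start site are shown for 5 members called there, 4 that were higher and 1 that was lower without UCP1. These were picked by name with no rule, and other called members, such as Cyp2c44 and Cyp2j6, are not shown. The sequences are from RefSeq for GRCm38.p6, 5′ to 3′ on the strand of the gene, and 56 of the 77 members had such an entry. Capitals mark matches, on either strand, to 5 motifs. The TATA box was searched as TATAAA and the GC box of Sp factors as GGGCGG. The element of nuclear receptors was searched as AGGTCA. The core of the AHR element was searched as GCGTG, and part of the cAMP response element as TGACG. No match overlapped another.
Cyp4b1: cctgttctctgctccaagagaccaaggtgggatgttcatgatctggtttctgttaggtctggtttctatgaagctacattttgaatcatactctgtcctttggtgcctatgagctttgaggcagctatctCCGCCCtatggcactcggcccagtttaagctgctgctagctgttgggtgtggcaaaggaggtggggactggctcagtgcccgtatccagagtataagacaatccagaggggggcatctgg
Cyp46a1: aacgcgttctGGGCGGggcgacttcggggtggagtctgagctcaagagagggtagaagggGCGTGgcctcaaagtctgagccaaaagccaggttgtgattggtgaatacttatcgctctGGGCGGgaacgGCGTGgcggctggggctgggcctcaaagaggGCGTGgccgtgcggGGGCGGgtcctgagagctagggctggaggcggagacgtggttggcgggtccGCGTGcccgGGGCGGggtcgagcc
Cyp4f18: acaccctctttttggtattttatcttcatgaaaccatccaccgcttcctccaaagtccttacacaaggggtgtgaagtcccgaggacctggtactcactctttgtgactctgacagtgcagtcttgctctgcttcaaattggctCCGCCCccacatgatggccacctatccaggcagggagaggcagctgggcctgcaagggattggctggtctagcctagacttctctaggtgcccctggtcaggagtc
Cyp2c70: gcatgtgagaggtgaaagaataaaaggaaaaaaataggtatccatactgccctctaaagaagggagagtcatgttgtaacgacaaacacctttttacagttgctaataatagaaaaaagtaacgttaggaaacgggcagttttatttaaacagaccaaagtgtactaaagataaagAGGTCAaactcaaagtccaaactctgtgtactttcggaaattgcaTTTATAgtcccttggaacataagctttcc
Cyp4f13: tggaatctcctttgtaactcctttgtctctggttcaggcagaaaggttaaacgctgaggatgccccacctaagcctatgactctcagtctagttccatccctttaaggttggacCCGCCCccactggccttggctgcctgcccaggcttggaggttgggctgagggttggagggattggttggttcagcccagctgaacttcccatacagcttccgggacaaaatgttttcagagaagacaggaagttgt

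The windows lie at chr4:115647722-115647971 (Cyp4b1, minus strand), chr12:108334066-108334315 (Cyp46a1, plus strand), chr8:72009627-72009876 (Cyp4f18, minus strand), chr19:40187287-40187536 (Cyp2c70, minus strand) and chr17:32947362-32947611 (Cyp4f13, minus strand). The start site was the outer end of the annotated gene for Cyp4b1 and Cyp2c70, and lay 48, 42 and 54 bases inside it for Cyp46a1, Cyp4f18 and Cyp4f13. The GC box was found in 4 of these 5 windows, in 14 of the 56 members with an entry, and in 32.94% of 27025 RefSeq promoters of the same length. As the windows were picked by name, the 4 of 5 does not stand for the called members. Cyp46a1 had 4 GC boxes and 4 AHR cores, and its window was 67.6% G and C against 36.0% for Cyp2c70. Cyp2c70 had the letters TATAAA on the opposite strand, 29 to 24 bases before the start, and AGGTCA 74 to 69 bases before it. Among all promoters TATAAA was present in 12.97% (22 of the 56 members), AGGTCA in 13.84% (10 members), GCGTG in 28.21% (12 members) and TGACG in 17.86% (4 members). These are matches of letters, not sites of binding.

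The family was foremost a liver family. In WT mice, 62 of the 77 members had their highest mean in liver, 12 in iWAT, 2 in BAT and 1 in muscle, and 44 had a liver mean over 100 times that of every other tissue. Levels in counts per 1000000 counts of a library (CPM) reached a WT mean of 100 CPM or more for 35 members in liver, 3 in iWAT, 1 in BAT and 0 in muscle. The family took 2.42% ± 0.0388 (SD, n = 5) of the counts in WT liver, 0.2097% ± 0.0637 in iWAT, 0.0534% ± 0.0129 in BAT and 0.0231% ± 0.00447 in muscle. The tissue heatmap shows this as a bright liver column beside a short list of genes that were bright elsewhere. Tissues were not compared by a test, since no label links libraries of one mouse.

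**Figure D1:**
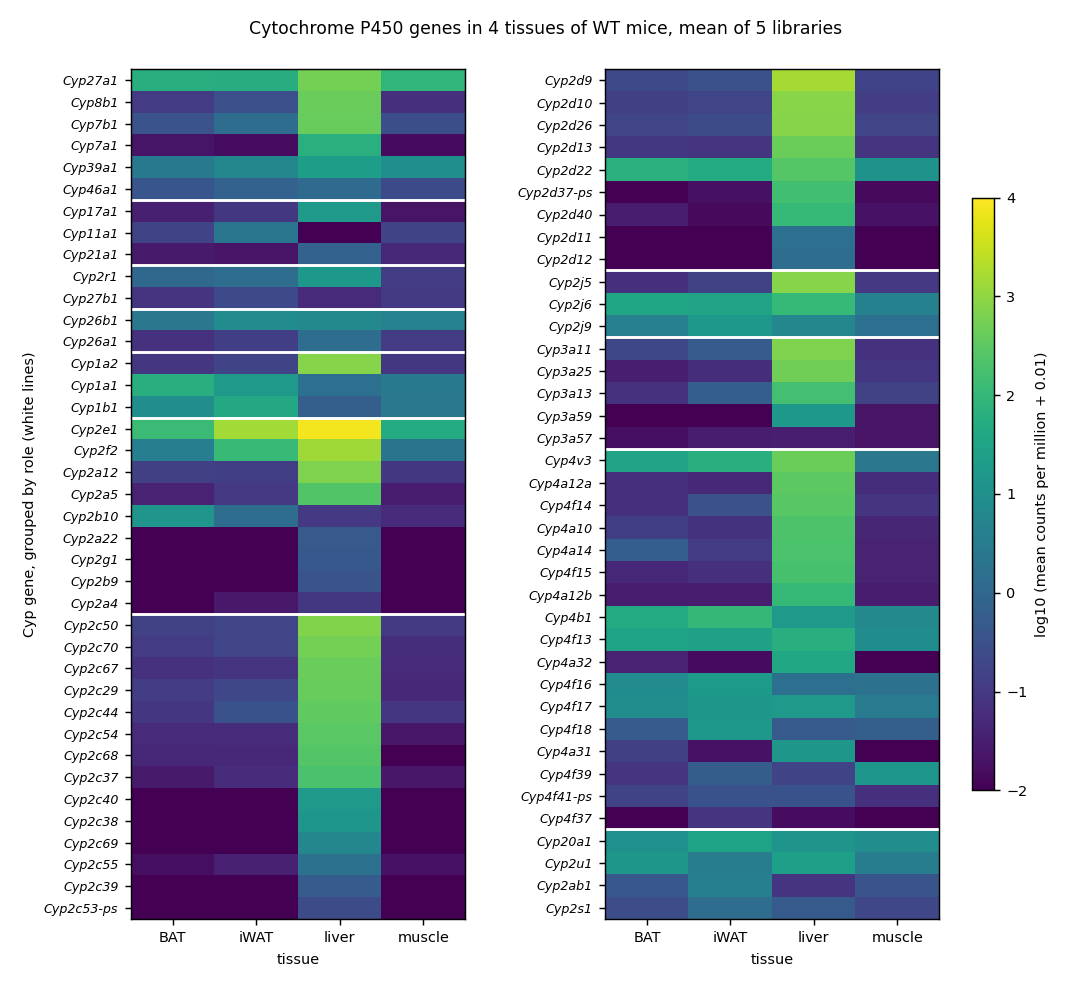
Mean level of each of the 77 members in WT mice as log10 of mean CPM plus 0.01 (colour), with 4 tissues as columns and genes as rows, grouped by role between white lines; each cell is the mean of 5 libraries. Liver is brightest for 62 members, while Cyp1a1 and Cyp2b10 are highest in BAT and Cyp4f39 in muscle.

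Levels of different genes were compared per kilobase of transcript, as the mean over the 20 libraries of a tissue. In liver, Cyp2e1, which oxidizes ethanol and ketones, led at 3949 CPM per kb, ahead of Cyp2d9 (863), Cyp2f2 (748), Cyp2d26 (464) and Cyp2d10 (456). Cyp2e1 also led in iWAT, at 598 CPM per kb, followed by Cyp4b1 (48.3), Cyp2f2 (38.8), Cyp27a1 (26.7) and Cyp4v3 (16.8). In BAT the order was Cyp4b1 (58.8), Cyp2e1 (37.04), Cyp27a1 (36.01), Cyp2d22 (24.4) and Cyp1a1 (22.4), with ranges over libraries that overlapped from each gene to the next. In muscle Cyp27a1, the sterol 27-hydroxylase, led at 44.04 CPM per kb, and Cyp2e1 (18.2), Cyp4f39 (5.95), Cyp4f13 (4.55) and Cyp2d22 (4.27) followed. In the WT libraries alone Cyp2e1 led in BAT as well, at 65.9 ± 56.8 CPM per kb (SD, n = 5), ahead of Cyp27a1 (31.9 ± 4.52) and Cyp4b1 (25.02 ± 4.004), and in WT iWAT Cyp2f2 (60.7 ± 12.8) stood before Cyp4b1 (52.5 ± 12.1). The first member of liver, iWAT and muscle was the same in WT. Thus Cyp2e1 was among the first 5 in all 4 tissues.

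A few members were fat or muscle genes rather than liver genes. Of the 15 members highest outside liver, 13 reached a WT mean of 1 CPM there. Cyp1a1, the AHR target, stood at 62.3 ± 5.82 CPM (SD, n = 5) in WT BAT, 17.5 ± 2.94 in iWAT and 1.51 ± 0.276 in liver. Cyp2b10, a CAR target in liver, stood at 13.3 ± 10.2 CPM in WT BAT, 1.4 ± 1.23 in iWAT and 0.0899 ± 0.0171 in liver. For both genes the 5 BAT libraries lay above all WT libraries of the next tissue. Cyp4f39, a relative of the human skin enzyme that hydroxylates very long fatty acids, was counted mainly in muscle, at 13.99 ± 2.65 CPM in WT. The members highest in WT iWAT included Cyp4b1 at 99.3 ± 22.8 CPM and Cyp1b1 at 41.99 ± 14.8 CPM.

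The 4 genotypes were compared in each tissue with edgeR's quasi-likelihood test on counts, with Benjamini-Hochberg adjustment over all genes tested in the tissue and a call at an adjusted p under 0.01. From here on, CPM within a tissue use library sizes scaled by TMM factors, as the test does. A filter on low counts kept 42 of the 77 members in BAT, 54 in iWAT, 72 in liver and 45 in muscle. A member could pass the filter through the group where it was high, so counts over those that passed do not stand for all members. In BAT, 7 of 42 members differed between UCP1 KO and WT (16.7%), while 25.2% of all 15729 genes tested were called. Of the 7, 5 were higher (13.8% of all genes were called higher) and 2 were lower (11.4%). In iWAT, liver and muscle no member passed in any comparison.

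In BAT of UCP1 KO mice the higher members were Cyp2c70, Cyp2c44, Cyp4b1, Cyp4f18 and Cyp46a1, and the lower ones were Cyp4f13 and Cyp2j6. They belong to different branches of the family: an enzyme of bile acids, epoxygenases, hydroxylases of fatty acids and leukotrienes, and a cholesterol hydroxylase. The median log2 fold change over the 42 members was 0.20, against 0.0097 over all genes tested. With the score of hepatocyte markers described below as a covariate, the members' median was 0.079.

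**Figure D2:**
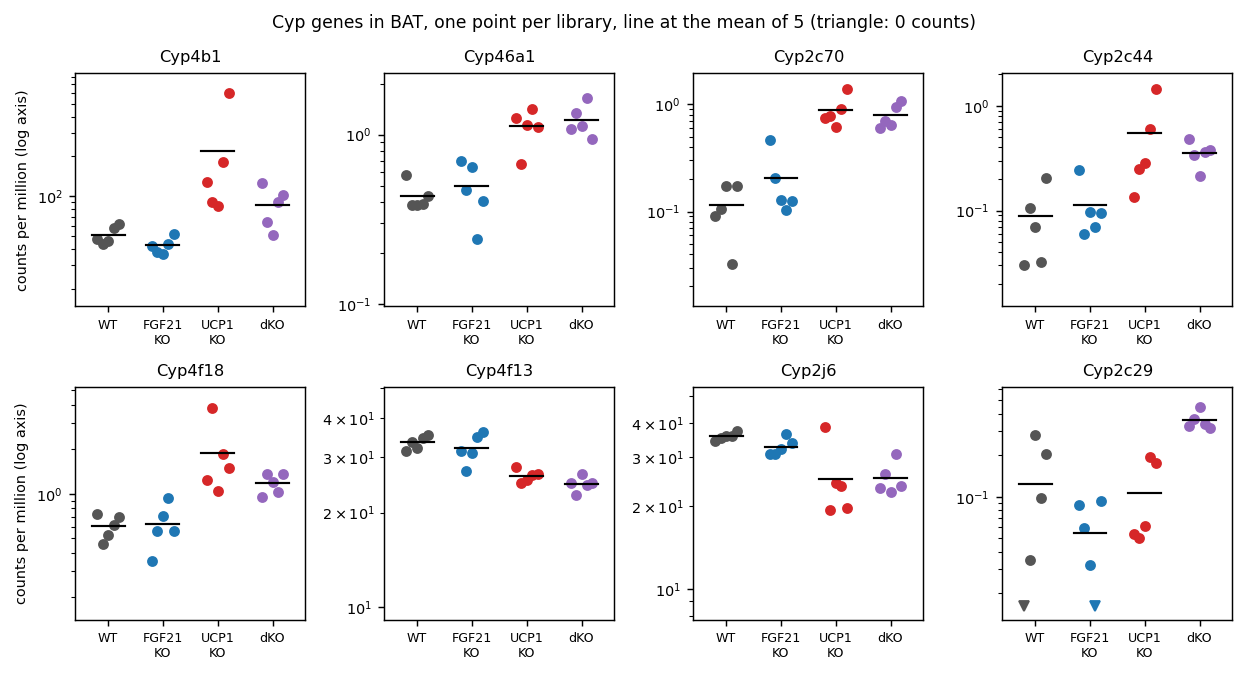
CPM (log axis) of 8 members in BAT by genotype, one point per library, with a line at the mean of 5 libraries and a triangle for 0 counts. For Cyp4b1, Cyp46a1, Cyp2c70 and Cyp4f18 the 5 UCP1 KO libraries lie above the 5 WT libraries, for Cyp4f13 they lie below, and for Cyp2c44, Cyp2j6 and Cyp2c29 these groups overlap.

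Cyp4b1, a hydroxylase of fatty acids and foreign compounds, was among the 5 leading members in BAT per kilobase. Its level in WT was 47.3, 43.5, 46.04, 57.7 and 61.6 CPM, and in UCP1 KO it was 128, 90.1, 84.9, 183 and 607 CPM. In dKO it was 126, 63.4, 50.8, 90.7 and 102 CPM, and in FGF21 KO 42.1, 37.7, 36.8, 43.9 and 52.04 CPM. All UCP1 KO libraries were above all WT libraries, the fifth by far the most, and dKO overlapped both WT and FGF21 KO. The log2 fold change in UCP1 KO against WT was 2.09 ± 0.42 (SE), with an adjusted p of 0.000799 in edgeR's quasi-likelihood test and an exact permutation p of 0.00794 (two-sided, the smallest that 5 against 5 libraries allow). Without UCP1 KO replicate 5 it was 1.25 and still called, while with the hepatocyte score as a covariate, described below, it was not called. In a fit of only the 2 genotypes compared, which does not share the spread of the other libraries, it was 2.10 ± 0.51 and the call was lost (adjusted p = 0.0106), as were those of Cyp2c44 and Cyp2j6 below (adjusted p = 0.0213 and 0.0381). In dKO against FGF21 KO it was 1.02 ± 0.41 (adjusted p = 0.0684), which did not pass, while in the fit of those 2 genotypes alone it did (adjusted p = 0.005998).

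Cyp46a1, the cholesterol 24-hydroxylase best known from neurons, was a low gene in BAT. It stood at 0.578, 0.386, 0.385, 0.3902 and 0.434 CPM in WT and at 1.26, 0.675, 1.14, 1.42 and 1.11 CPM in UCP1 KO. In FGF21 KO it stood at 0.703, 0.474, 0.645, 0.242 and 0.407 CPM, and in dKO at 1.08, 1.33, 1.13, 1.65 and 0.9401 CPM. UCP1 KO lay above WT, and dKO above FGF21 KO, with no overlap. The log2 fold change was 1.36 ± 0.26 in UCP1 KO against WT (adjusted p = 0.000514) and 1.29 ± 0.25 in dKO against FGF21 KO (adjusted p = 0.00131). In iWAT the gene was at 0.801 ± 0.402 CPM in WT and 0.667 ± 0.12 CPM in UCP1 KO, and was not called.

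Cyp2c70, which in mouse liver makes muricholic acids from other bile acids, had the largest log2 fold change among the 7 called members of UCP1 KO BAT. It stood at 0.0912, 0.105, 0.175, 0.0325 and 0.174 CPM in WT and at 0.751, 0.775, 0.611, 0.914 and 1.396 CPM in UCP1 KO. In FGF21 KO the values were 0.461, 0.207, 0.129, 0.104 and 0.125 CPM, and in dKO 0.5995, 0.706, 0.636, 0.952 and 1.06 CPM. UCP1 KO did not overlap with WT, nor dKO with FGF21 KO, and the levels in WT rest on few counts. The log2 fold change was 2.91 ± 0.42 in UCP1 KO against WT (adjusted p = 3.909e-05) and 1.87 ± 0.38 in dKO against FGF21 KO (adjusted p = 0.00158). In liver, its main tissue, the gene was at 587, 486, 601, 632 and 549 CPM in WT and 475, 382, 329, 376 and 377 CPM in UCP1 KO. There the groups did not overlap either (exact permutation p = 0.00794), but the log2 fold change of -0.56 ± 0.21 was not called (adjusted p = 0.343).

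Cyp4f18, which in mice oxidizes the leukotriene B4 of myeloid cells, stood at 0.7299, 0.456, 0.524, 0.618 and 0.695 CPM in WT BAT and at 1.23, 3.799, 1.04, 1.85 and 1.505 CPM in UCP1 KO. The 5 UCP1 KO libraries lay above the 5 WT libraries. On the log2 scale the fold change was 1.63 ± 0.31 (adjusted p = 0.0005597), and in dKO against FGF21 KO it was 0.93 ± 0.31 (adjusted p = 0.0336), which did not pass. Markers of other cells moved with it. For macrophages, 5 of 6 listed markers were called higher in UCP1 KO BAT, their summed level was 73.8 to 205.5 CPM in UCP1 KO against 46.1 to 59.4 CPM in WT, and none was at 0. For lymph node cells, 1 of 8 markers was called higher, and their summed level was 4.16 to 13.2 CPM in UCP1 KO against 3.23 to 4.59 CPM in WT. For stromal progenitors, 0 of 6 markers were called, with summed levels of 509 to 1332 CPM and 397.5 to 617.5 CPM. Their part in the result was not tested. In bulk tissue, a different number of cells of a type and a different amount of RNA per cell cannot be told apart.

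Cyp2c44, an arachidonic acid epoxygenase, stood at 0.0304, 0.105, 0.0699, 0.0325 and 0.203 CPM in WT BAT and 0.134, 0.2499, 0.285, 0.603 and 1.46 CPM in UCP1 KO. The WT levels rest on few counts, and the highest WT library lay above the lowest UCP1 KO library. In edgeR its log2 fold change was 2.58 ± 0.62 (adjusted p = 0.00314). It was 1.82 without UCP1 KO replicate 5 and was then no longer called, and the call was also lost without WT replicate 1 or 4. The hepatocyte score as a covariate, described below, lowered the fold change and ended the call as well.

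The lower members moved less. Cyp4f13, a member of family 4, stood at 31.5, 33.6, 32.2, 34.6 and 35.4 CPM in WT and at 27.9, 24.8, 25.3, 26.4 and 26.6 CPM in UCP1 KO. In FGF21 KO the libraries lay from 27.2 to 36 CPM and in dKO from 22.8 to 26.6 CPM. All libraries without UCP1 were below those of the genotype they were compared with, and the log2 fold change was -0.35 ± 0.068 in UCP1 KO against WT (adjusted p = 0.000523) and -0.38 ± 0.068 in dKO against FGF21 KO (adjusted p = 0.000629).

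Cyp2j6, of a subfamily of fatty acid epoxygenases, stood at 34.4, 35.3, 35.8, 35.7 and 37.5 CPM in WT and at 38.6, 19.3, 24.3, 23.6 and 19.6 CPM in UCP1 KO. UCP1 KO replicate 1 was above all WT libraries and the other 4 were below them, and the log2 fold change was -0.51 ± 0.14 (adjusted p = 0.00814). Leaving out 1 library ended this call for 13 of the 20 libraries, and so did the hepatocyte or the skeletal muscle score as a covariate.

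**Figure D3:**
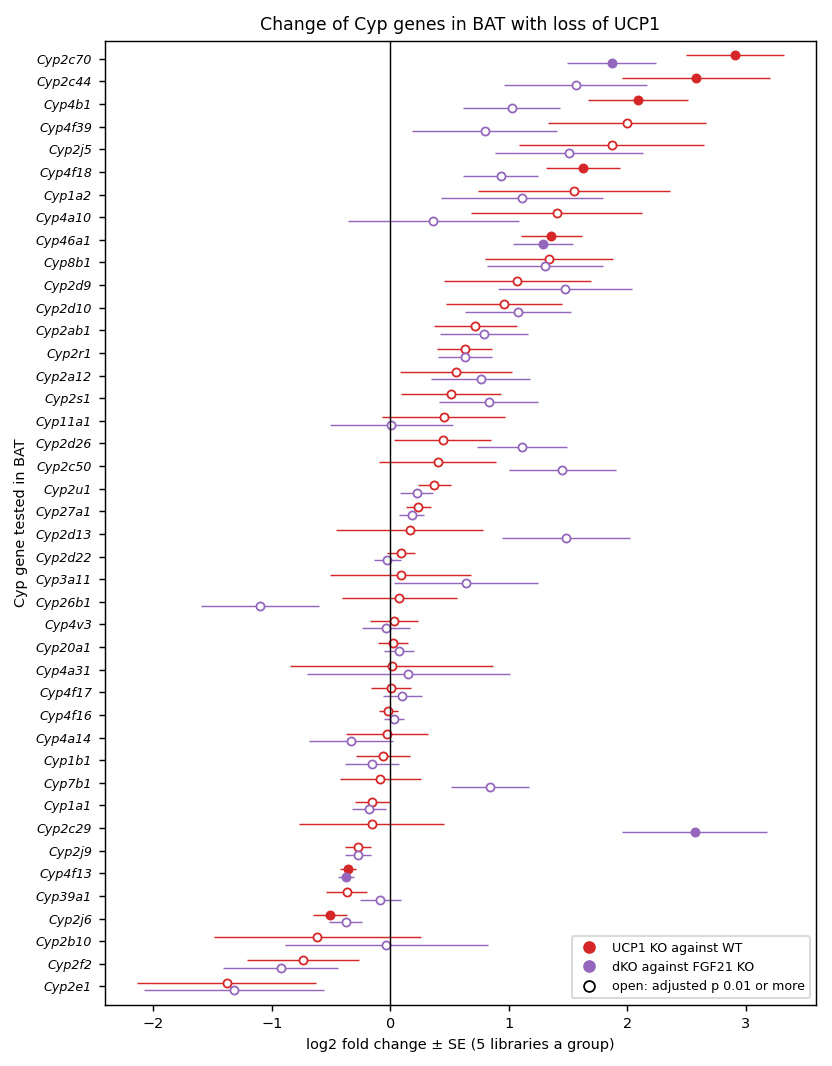
Log2 fold change with its standard error for the 42 members tested in BAT, with UCP1 KO against WT in red and dKO against FGF21 KO in purple; filled points had an adjusted p under 0.01. Cyp2c70, Cyp46a1 and Cyp4f13 are filled in both comparisons, and Cyp2c29 is filled for dKO against FGF21 KO.

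The comparison of dKO with FGF21 KO rests on the other 10 BAT libraries, apart from the shared estimate of the spread, and there 4 of 42 members were called (9.52%, against 13.5% of all genes). These calls were lost with the hepatocyte score as a covariate, as described below. Cyp2c70, Cyp46a1 and Cyp2c29 were higher (6.74% of all genes) and Cyp4f13 was lower (6.8%). Cyp2c29, a liver enzyme for foreign compounds and fatty acids, stood at 0.0879, 0.0592, 0.0323, 0 and 0.0938 CPM in FGF21 KO and at 0.323, 0.366, 0.448, 0.334 and 0.313 CPM in dKO. The groups did not overlap, and the log2 fold change was 2.57 ± 0.61 (adjusted p = 0.00486 in edgeR). The levels in FGF21 KO rest on few counts. The call was lost without FGF21 KO replicate 2, 3 or 4 (adjusted p up to 0.0147 in edgeR), and with the skeletal muscle or the hepatocyte score as a covariate (adjusted p = 0.0202 and 0.163). In UCP1 KO against WT the log2 fold change of Cyp2c29 was -0.16 ± 0.61, with overlapping groups. The median log2 fold change of the 42 members in dKO against FGF21 KO was 0.50, against 0.0037 over all genes, and 0.13 with the hepatocyte score as a covariate.

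In dKO against WT, 9 of 42 members were called (21.4%, against 21.1% of all genes). This comparison shares its WT libraries with UCP1 KO against WT. Cyp2c70, Cyp46a1, Cyp2j5, Cyp2d9, Cyp8b1, Cyp2c50 and Cyp2d26 were higher, and Cyp4f13 and Cyp2j9 were lower. None of these 9 was called with the hepatocyte score as a covariate, and 4 were with the skeletal muscle score, as given below. Cyp2j5 had the largest log2 fold change, 3.04 ± 0.74 (adjusted p = 0.00422), between means of 0.0645 CPM in WT and 0.555 CPM in dKO. Cyp8b1, the sterol 12-alpha-hydroxylase, had a log2 fold change of 1.95 ± 0.53 (adjusted p = 0.00809), between 0.114 and 0.455 CPM. Cyp2j9 stood at 4.38, 3.897, 4.61, 4.62 and 4.23 CPM in WT and 3.11, 3.03, 3.25, 2.96 and 2.97 CPM in dKO, with no overlap and a log2 fold change of -0.50 ± 0.11 (adjusted p = 0.00173). The calls of Cyp2j5, Cyp2d9, Cyp8b1, Cyp2c50 and Cyp2d26 each depended on single libraries, and those of Cyp2c70, Cyp46a1, Cyp4f13 and Cyp2j9 were kept without any 1 library. Over all 4 genotypes 9 members differed (21.4%, against 29.7% of all genes), namely the 7 of UCP1 KO against WT with Cyp2c29 and Cyp2j9.

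No member was called in BAT between UCP1 KO and dKO (against 0.0636% of all genes). There 12 of 42 members and 2035 of all 15729 genes had an unadjusted p under 0.05 in edgeR. DESeq2 called 0 members and 56 genes. For FGF21 KO against WT and for the interaction of both losses, edgeR called no gene at all (0% each). In each, 1 member had an unadjusted p under 0.05 in edgeR, beside 1345 and 845 of all genes. DESeq2 called 0 members in either, and 30 genes and 1 gene. Cyp4b1 and Cyp4f18 passed in UCP1 KO against WT and not in dKO against FGF21 KO, but neither was called in the test of that difference.

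By role, the calls in BAT of UCP1 KO mice are to be read beside the 13.8% of all genes called higher and the 11.4% called lower. Of 5 tested bile acid and oxysterol hydroxylases, Cyp46a1 was called and the others were not, with Cyp27a1 at 65.5 ± 10.3 CPM in WT and 77.1 ± 11.4 CPM in UCP1 KO. Of 10 tested members of family 4, 2 were higher and 1 was lower. Of 4 tested Cyp2c genes 2 were higher, and of 3 Cyp2j genes 1 was lower. None was called among 5 Cyp2d genes, 3 genes of family 1, 4 genes of subfamilies 2a, 2b, 2e, 2f and 2g, 1 gene of subfamily 3a, or 4 other genes, nor among the single tested members for steroid hormones (Cyp11a1), retinoic acid (Cyp26b1) and vitamin D (Cyp2r1).

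Cyp2e1 and Cyp2b10 varied widely within the genotypes of BAT. Cyp2e1 stood at 29.5, 21.8, 108, 272 and 217 CPM in WT, 76.1, 29.1, 60.04, 88.95 and 114 CPM in FGF21 KO, 148, 58.5, 8.23, 18.7 and 15.4 CPM in UCP1 KO and 9.38, 13.7, 28.9, 58.5 and 36.9 CPM in dKO. Its groups overlapped, and the log2 fold change of -2.14 ± 0.78 in dKO against WT was not called (adjusted p = 0.0373). Cyp2b10 ran from 5.66 to 31.2 CPM in WT, 2.96 to 48.2 in FGF21 KO, 1.29 to 34.6 in UCP1 KO and 4.52 to 89.4 in dKO. Cyp1a1 was at 67.4 ± 5.79 CPM in WT, 60.3 ± 9.74 in FGF21 KO, 60.6 ± 6.81 in UCP1 KO and 53.2 ± 14.03 in dKO, and was not called.

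The following members had no call in BAT in the edgeR fit of all 4 genotypes. Cyp2r1, the vitamin D 25-hydroxylase, was at 1.06 ± 0.167 CPM in WT, 1.64 ± 0.538 in UCP1 KO and 1.81 ± 0.3404 in dKO (adjusted p = 0.0138 in dKO against WT). DESeq2 did call it in that comparison (adjusted p = 0.00685), as did edgeR on those 2 genotypes alone, and DESeq2 also called Cyp2u1 there. Cyp26b1, which breaks down retinoic acid, was at 2.52 ± 2.33 CPM in WT and 1.08 ± 0.222 in dKO. Cyp4v3, a fatty acid hydroxylase, was at 34.8 ± 2.99 CPM in WT and 44.5 ± 8.25 in dKO. Cyp2u1 was at 16.2 ± 2.21 CPM in WT and 20.9 ± 4.63 in UCP1 KO, and Cyp1b1 at 9.47 ± 0.874 and 9.098 ± 2.92. Cyp4f16 was at 8.59 ± 0.305 CPM in WT and 8.49 ± 0.871 in UCP1 KO, and Cyp2f2 at 4.07 ± 3.69 and 2.44 ± 1.63. Cyp7b1, Cyp11a1, Cyp2s1, Cyp4a10 and Cyp4a14 had WT means of 0.353, 0.172, 0.273, 0.131 and 0.679 CPM.

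Of 10 genes for electron transfer and heme that serve the family, all tested, 3 were higher and 1 was lower in BAT of UCP1 KO against WT, where 25.2% of all genes were called. Alas1, the first enzyme of heme synthesis, had a log2 fold change of 1.46 ± 0.21 (adjusted p = 3.808e-05), from 324 to 892 CPM. Hmox1, which breaks heme down, had 1.83 ± 0.26, and Cyb5b, a mitochondrial cytochrome b5, had 0.80 ± 0.13. Por, which passes electrons to the family, was lower, with a log2 fold change of -0.70 ± 0.12, from 244 to 150.1 CPM. In dKO against FGF21 KO the log2 fold changes, all called, were 1.64 for Alas1, 1.51 for Hmox1, 0.75 for Cyb5b and -0.59 for Por. Of 13 tested nuclear receptors and partners, Rxra was lower in UCP1 KO against WT (-0.66 ± 0.12 on the log2 scale).

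Many liver genes had low counts in the other tissues, and these moved together with hepatocyte markers. For the members whose WT liver mean was over 100 times that of the next tissue and that reached 10 CPM in liver of the same genotype, the level was expressed as a percent of that liver level. In WT BAT the median of 36 such members was 0.0188%, and 8 hepatocyte markers (9 with Trf, which fat makes too) lay between 0.0112% and 0.0317%. In UCP1 KO BAT the median of 36 members was 0.0414% and the markers lay between 0.0328% and 0.0515%. In dKO BAT the median of 35 members was 0.0742% and the markers lay between 0.0579% and 0.0987%. So the typical liver member stood in BAT at about the percent of the hepatocyte genes.

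Of 10 listed hepatocyte markers 9 were matched in the files, and these had counts in every library of every tissue. In dKO against WT BAT 7 of 9 were called higher and 1 lower, and in UCP1 KO against WT 0 of 9 were called. Their summed level was 97.4 to 319 CPM in WT BAT, 91.3 to 250.5 CPM in FGF21 KO, 124 to 232 CPM in UCP1 KO and 126 to 187 CPM in dKO, Trf included. Their score, the mean of log2 of CPM plus 0.1, was 0.995 to 1.61 in WT, 1.36 to 2.73 in UCP1 KO and 2.73 to 3.12 in dKO.

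In UCP1 KO BAT 5 members, Cyp2c44, Cyp2c70, Cyp4a10, Cyp4a14 and Cyp4a31, had a mean over 2 times the percent of the highest marker, with Cyp4a31 highest at 0.685%. In WT BAT 5 did as well (Cyp17a1, Cyp4a14, Cyp4a31, Cyp4a32 and Cyp7b1), in FGF21 KO 4 did, and in dKO Cyp4a31 alone did (0.615%). Cyp4a31 stood at 0.873% in WT BAT and had 1 to 17 counts in the UCP1 KO libraries. Cyp2c70 was at 0.131% to 0.365% of its liver level in the 5 UCP1 KO BAT libraries, while the 8 summed markers were at 0.0194% to 0.0632%. In dKO BAT it was at 0.131% to 0.218%, with markers at 0.0594% to 0.0767%. In WT BAT it was at 0.00603% to 0.0329%, with markers at 0.0138% to 0.0231%. With the hepatocyte score as a covariate, a setting added after seeing the data, its log2 fold change in UCP1 KO against WT was 2.30 ± 0.33 and still called (adjusted p = 9.657e-05).

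In the same fit Cyp2c70, Cyp46a1, Cyp4f18 and Cyp4f13 were called in UCP1 KO against WT, and Cyp4b1 (1.43 ± 0.46, adjusted p = 0.0258) and Cyp2c44 (1.39 ± 0.52, adjusted p = 0.0529) were not, nor was Cyp2j6. Over all 15729 genes 2549 were called in that comparison, in place of 3964. No member was called in dKO against FGF21 KO or against WT, where calls over all genes fell to 413 from 2129 and to 511 from 3323. In dKO against FGF21 KO the log2 fold change was then 1.08 ± 0.35 for Cyp2c70 (adjusted p = 0.0519), 0.93 ± 0.32 for Cyp46a1 (0.0679) and -0.35 ± 0.093 for Cyp4f13 (0.0257). Of the members called in dKO against WT, Cyp2d9 then had a log2 fold change of 0.14 ± 0.56, Cyp8b1 0.18 ± 0.50, Cyp2c50 0.21 ± 0.55, Cyp2j5 0.55 ± 0.70 and Cyp2d26 0.73 ± 0.58 (adjusted p from 0.422 to 0.907). The other 4 were also not called: Cyp2c70 had 1.51 ± 0.43 (adjusted p = 0.0292), Cyp46a1 1.01 ± 0.36 (0.0744), Cyp4f13 -0.41 ± 0.10 (0.0181) and Cyp2j9 -0.49 ± 0.17 (0.0614). The part of liver RNA in them cannot be told apart from genotype here, since the scores of dKO and WT libraries did not overlap.

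**Figure D4:**
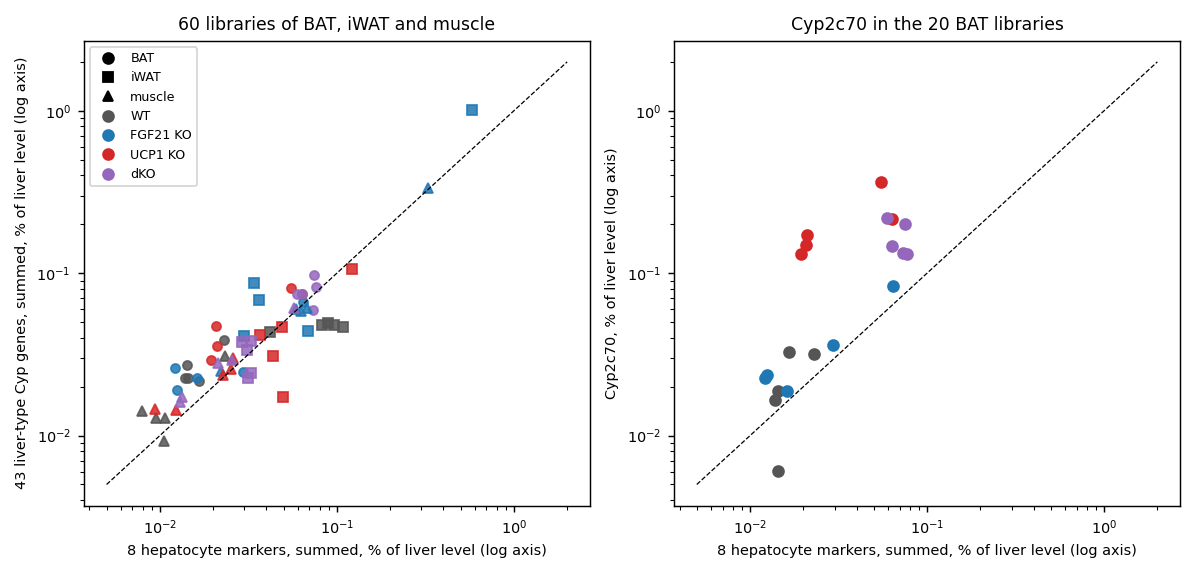
Left, the summed level of 43 liver-type Cyp genes against the summed level of 8 hepatocyte markers, both in percent of their liver level on log axes, one point per library of BAT, iWAT and muscle; right, the same for Cyp2c70 in BAT. Points on the left lie on both sides of the dashed line of equal percent, some well off it (0.0875% against 0.0341% in iWAT of FGF21 KO replicate 3), and on the right all points but that of WT replicate 4 lie above it, with UCP1 KO at 0.131% to 0.365% and WT at 0.00603% to 0.0329%.

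Skeletal muscle markers also differed in BAT: 5 of 10 were called higher in UCP1 KO and 10 of 10 in dKO against WT, with summed levels of 24.7 to 110.4 CPM in WT, 65.1 to 9810.0 CPM in UCP1 KO and 99.3 to 4878 CPM in dKO, and none at 0. With their score as a covariate 6 of 42 members were called in UCP1 KO against WT, all of the 7 but Cyp2j6, beside 3167 of all 15729 genes. Cyp4f39, the muscle member, was at 0.0773 ± 0.0342 CPM in WT BAT and 0.3202 ± 0.272 CPM in UCP1 KO (adjusted p = 0.0228, not called), and the part of muscle RNA in it was not tested.

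In iWAT no member was called in any comparison, against 0.61% of 17380 genes in UCP1 KO against WT, 0.0115% in dKO against FGF21 KO, 0.466% in UCP1 KO against dKO, 0.00575% in FGF21 KO against WT, 0.0173% in dKO against WT, 1.74% over all 4 genotypes and 0% for the interaction. In the same order, 4, 24, 8, 27, 5, 29 and 19 of the 54 tested members had an unadjusted p under 0.05 in edgeR. Over all 17380 genes 2551, 1499, 2475, 3024, 1026, 3907 and 1734 did. DESeq2 called 6 members over all 4 genotypes, beside 1263 of all genes, and 0 members in the others. At an adjusted p under 0.05, 4 members differed over all 4 genotypes (against 5.04% of all genes): Cyp7b1, Cyp1a1, Cyp2b10 and Cyp2u1. The median log2 fold change of the members in FGF21 KO against WT was 0.59, against -0.012 over all genes. It was -0.096 with the hepatocyte score as a covariate, and -0.15 over the 35 members tested in libraries with little lymph node RNA (1 of them FGF21 KO). With the hepatocyte score 11 in place of 27 members, and 2926 in place of 3024 of all genes, had an unadjusted p under 0.05 in edgeR. A covariate for lymph node RNA gave a median of 0.33, with 22 members and 3052 of all genes at such a p. The hepatocyte score was 6.41 in FGF21 KO replicate 4 and 1.65 to 2.53 in the other 4 libraries of that group.

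Cyp1a1 in iWAT stood at 16.3, 19.6, 16.04, 21.4 and 14.8 CPM in WT and at 28.04, 27.5, 36.1, 27.6 and 53.8 CPM in UCP1 KO. In FGF21 KO it stood at 7.23, 12.5, 5.16, 5.72 and 10.5 CPM, and in dKO at 3.78, 9.07, 8.29, 32.7 and 23.4 CPM. The UCP1 KO libraries were all above WT and the FGF21 KO libraries all below WT, while dKO spanned both. The log2 fold change in UCP1 KO against WT was 0.97 ± 0.43 (adjusted p = 0.287 in edgeR, exact permutation p = 0.00794), and in FGF21 KO against WT it was -1.10 ± 0.43 (adjusted p = 0.254, exact permutation p = 0.00794). Lymph node RNA, described below, moved with it: Cyp1a1 had a median of 8.29 CPM in 9 libraries whose lymph node score was high, 4 of them FGF21 KO, and 23.4 CPM in the other 11. With that score as a covariate the log2 fold changes were 0.75 ± 0.36 and -0.87 ± 0.36, and in the 11 libraries alone 1.05 ± 0.38 and -0.46 ± 0.59, the last with 1 FGF21 KO library; none was called. Brown adipocyte markers moved with it as well: 5 of 7 were called higher in UCP1 KO against WT iWAT and 0 of 7 were called in FGF21 KO against WT. Their summed level was 876 to 4410.1 CPM in UCP1 KO, 193 to 425.9 CPM in WT, 70.7 to 198.4 CPM in FGF21 KO and 150.3 to 493.6 CPM in dKO, and none was at 0 in all libraries of a group. Their part in the result was not tested.

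Cyp2u1, a fatty acid hydroxylase known from brain and thymus, stood at 4.24, 4.88, 3.34, 2.87 and 1.99 CPM in WT iWAT and at 6.15, 4.57, 9.52, 9.23 and 14.3 CPM in UCP1 KO (log2 fold change 1.34 ± 0.40, adjusted p = 0.0909). Cyp2b10 stood at 0.859, 0.722, 1.05, 3.45 and 0.848 CPM in WT and at 6.302, 1.96, 3.88, 4.31 and 6.85 CPM in UCP1 KO (log2 fold change 1.74 ± 0.65, adjusted p = 0.184). For each of them the lowest UCP1 KO library lay below the highest WT library. The brown adipocyte markers, higher in these UCP1 KO libraries with no overlap, moved with both members, whose WT means, in counts per total counts with no scaling factor, were higher in BAT (14.9 ± 1.98 and 13.3 ± 10.2 CPM) than in iWAT (3.38 ± 0.917 and 1.4 ± 1.23 CPM). Their part was not tested here either. Cyp7b1, the oxysterol 7-alpha-hydroxylase, ran from 0.818 to 5.89 CPM in FGF21 KO and from 0.693 to 2.47 CPM in WT.

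The iWAT libraries differed in lymph node RNA, scored as the mean of log2 of CPM plus 0.1 over 8 lymphocyte markers. The score was above 4 in 9 libraries (2 WT, 4 FGF21 KO, 1 UCP1 KO and 2 dKO) and lower in the other 11. Cyp4f18 was at 23.0 to 39.2 CPM in the 9 and at 3.77 to 10.4 CPM in the 11, with no overlap. Cyp20a1, a member of unknown substrate, was at 19.95 to 26.2 CPM in the 9 and at 27.1 to 38.5 CPM in the 11. Cyp4v3 (39.1 to 60.6 against 61.6 to 115.1 CPM), Cyp2j6 (12.2 to 28.8 against 33.9 to 41.9 CPM) and Cyp46a1 (0.315 to 0.623 against 0.653 to 1.19 CPM) were lower in the 9 with no overlap. Cyp2s1 (2.29 to 3.84 against 0.404 to 1.02 CPM) and Cyp4f37 (0.1045 to 0.667 against 0 to 0.0674 CPM) were higher with no overlap.

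With this score added to the fit as a covariate, Cyp2u1 (1.07 ± 0.21, adjusted p = 0.00332) and Cyp20a1 were called in UCP1 KO against WT, and Cyp2u1 was called in UCP1 KO against dKO. In that fit 852 and 793 of all 17380 genes were called in these comparisons, in place of 106 and 81. In the 11 libraries alone, the log2 fold change of Cyp2b10 in UCP1 KO against WT was 2.59 ± 0.49. There the log2 fold change of Cyp7b1 in FGF21 KO against WT was 0.019 ± 0.50, against 1.51 ± 0.47 in all libraries; only 1 FGF21 KO library was left, and it is assumed to vary like the other groups.

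**Figure D5:**
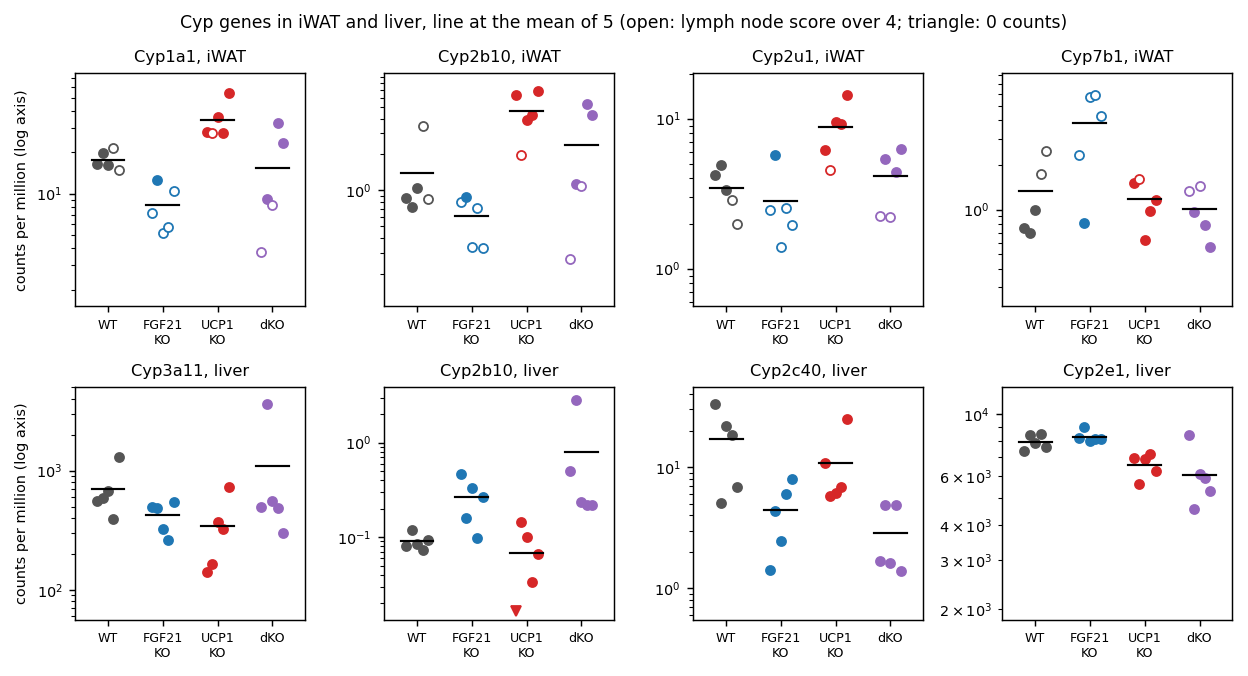
CPM (log axis) of 4 members in iWAT (top) and 4 in liver (bottom) by genotype, one point per library with a line at the mean of 5; open points are iWAT libraries with a lymph node score above 4, and a triangle is a library with 0 counts. Cyp1a1 in iWAT is above WT in all UCP1 KO libraries, and liver dKO replicate 2 is the highest point for Cyp3a11 and Cyp2b10.

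The abundant iWAT members were spread widely within genotypes, Cyp4v3 and Cyp2j6 along with the lymph node score as given above. Cyp2e1 ran from 860.4 to 2144 CPM in WT, 318 to 1297 in FGF21 KO, 534 to 2976 in UCP1 KO and 328 to 2096 in dKO. Cyp4b1 was at 102 ± 28.6 CPM in WT, 60.9 ± 10.6 in FGF21 KO, 123 ± 41.8 in UCP1 KO and 92.3 ± 28.4 in dKO. Thus Cyp4b1, called in UCP1 KO BAT, was not called in iWAT (log2 fold change 0.27 ± 0.25, adjusted p = 0.733), and the difference between the tissues was not tested. Cyp2f2 was at 114 ± 21.7 CPM in WT and 38.7 ± 33.9 in dKO, Cyp1b1 at 41.6 ± 11.9 and 45.3 ± 15.9, and Cyp27a1 at 56.1 ± 12.1 and 42.3 ± 6.81. Cyp4v3 was at 60.3 ± 14.3 CPM in WT and 77.99 ± 26.9 in dKO, Cyp2j6 at 32.6 ± 8.21 and 28.2 ± 10.2, and Cyp26b1 at 7.59 ± 3.39 and 12.3 ± 3.55.

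In iWAT of FGF21 KO replicate 4, the summed liver-type members were at 1.01% of their liver level and the 8 hepatocyte markers at 0.583%, against 0.0413% to 0.0875% and 0.0299% to 0.0690% in the other 4 libraries of that group. Among nuclear receptors, Ppara (3.38 ± 0.56) and Esrra (0.92 ± 0.14) were called higher in iWAT of UCP1 KO mice, 2 of 14 tested (against 0.61% of all genes), and no gene for electron transfer or heme was called.

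In liver, where 72 members were tested, none was called, against 0.0694% of 14407 genes in UCP1 KO against WT, 0.00694% in dKO against FGF21 KO, 0.00694% in UCP1 KO against dKO, 0.229% in FGF21 KO against WT, 0.0416% in dKO against WT, 0.34% over all 4 genotypes and 0% for the interaction. In the same order, 15, 15, 13, 7, 16, 20 and 4 members had an unadjusted p under 0.05 in edgeR, and DESeq2 called 3 in dKO against WT, 3 over all 4 genotypes and 0 in the others. The percentages above are of edgeR's adjusted calls, and the share of all genes at these other settings is not given here. The family took 2.42% ± 0.0388 of the counts in WT, 2.402% ± 0.113 in FGF21 KO, 2.07% ± 0.183 in UCP1 KO and 2.204% ± 0.314 in dKO.

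The bile acid genes of the liver, of which 6 were tested, varied within the genotypes. Cyp7a1, the rate-limiting enzyme of the classic route, ran from 11.2 to 124 CPM in WT, 29.4 to 83.6 in FGF21 KO, 12.5 to 193 in UCP1 KO and 36.4 to 159.6 in dKO. Cyp8b1, which sets the share of cholic acid, was at 422 ± 66.3 CPM in WT and 482 ± 132 in UCP1 KO. Cyp27a1 was at 556 ± 57.2 CPM in WT and 482 ± 39.8 in UCP1 KO (adjusted p = 0.388). Cyp7b1 was at 398 ± 135 CPM in WT and 402 ± 78.6 in UCP1 KO, and Cyp39a1 at 22.9 ± 4.68 and 25.5 ± 8.81.

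Cyp2e1 was the most abundant member in liver per kilobase. It stood at 7383, 8452, 7916, 8499 and 7617 CPM in WT and at 6969, 5627, 6930.0, 7216 and 6237 CPM in UCP1 KO. The groups did not overlap (exact permutation p = 0.00794), but the log2 fold change of -0.27 ± 0.12 was not called (adjusted p = 0.446).

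Targets of liver receptors were variable. Cyp4a14, a PPAR alpha target, ran from 146 to 283 CPM in WT, 51.1 to 151 in FGF21 KO, 115 to 1176 in UCP1 KO and 105 to 795 in dKO. Cyp4a10 was at 211 ± 45.1 CPM in WT and 272 ± 174 in dKO, Cyp4a31 at 14.9 ± 2.22 and 17.6 ± 6.998, and Cyp4a32 at 36.8 ± 8.64 and 46.3 ± 15.6. Cyp1a2, an AHR target, was at 824 ± 71.9 CPM in WT and 566 ± 151 in dKO (adjusted p = 0.214), while Cyp1a1 and Cyp1b1 were at 1.51 ± 0.273 and 0.628 ± 0.132 CPM in WT.

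Of the CAR and PXR targets, Cyp3a11 stood at 556, 585, 669, 396 and 1303 CPM in WT and at 492, 3637, 556, 488 and 299.9 CPM in dKO. Cyp2b10 had few counts, at 0.0805, 0.119, 0.0854, 0.0737 and 0.0922 CPM in WT and 0.501, 2.81, 0.233, 0.216 and 0.221 CPM in dKO, without overlap and with a log2 fold change of 3.14 ± 0.74 (adjusted p = 0.0709). It was the 1 member at an adjusted p under 0.05 over all 4 liver genotypes (against 0.764% of all genes). Without any 1 library the log2 fold change of Cyp2b10 lay between 1.68 and 3.37. Cyp2c29 was at 402 ± 90.6 CPM in WT and 504 ± 125 in dKO, and Cyp2c55 at 1.72 ± 0.421 and 3.06 ± 2.88.

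Cyp2c40 was at 32.97, 5.03, 21.9, 18.3 and 6.92 CPM in WT and 1.67, 4.88, 1.63, 4.87 and 1.38 CPM in dKO, and its log2 fold change of -2.57 ± 0.58 was not called in edgeR (adjusted p = 0.0573). DESeq2 called Cyp2b10, Cyp2c40 and Cyp2a22 in dKO against WT. Liver dKO replicate 2 stood apart from the other 4 for Cyp3a11, Cyp2b10, Cyp26a1 and Cyp2c55, all of which were highest there.

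Genes that differ between male and female mouse liver were counted in their male form. Cyp2d9 was at 1559.9 ± 193 CPM, Cyp4a12a at 309.8 ± 41.5 CPM and Cyp4a12b at 106 ± 16.4 CPM in WT. The female forms Cyp2b9 and Cyp2a4 were at 0.346 ± 0.319 and 0.0832 ± 0.0413 CPM, and Cyp2b13, Cyp3a41b and Cyp3a44 did not reach the count minimum. Cyp2a5, nearly identical to Cyp2a4, was at 236 ± 44.5 CPM in WT.

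In muscle none of 45 tested members was called, against 0.0265% of 15114 genes in UCP1 KO against WT, 0.0595% in dKO against FGF21 KO, 0% in UCP1 KO against dKO, 0.00662% in FGF21 KO against WT, 0.0529% in dKO against WT, 0.086% over all 4 genotypes and 0% for the interaction. In the same order, 5, 18, 6, 23, 3, 24 and 10 had an unadjusted p under 0.05 in edgeR, and DESeq2 called 1 in UCP1 KO against dKO, 8 in FGF21 KO against WT, 10 over all 4 genotypes and 0 in the others. The percentages above are of edgeR's adjusted calls, and the share of all genes at these other settings is not given here. At an adjusted p under 0.05, 7 members were higher in FGF21 KO against WT (against 1.17% of all genes) and 6 differed over all 4 genotypes (against 1.38%).

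The 7 were Cyp2d9, Cyp3a11, Cyp4a14, Cyp2c70, Cyp1a2, Cyp2a5 and Cyp2c54, all highest in liver. Cyp2d9 stood at 0.0524, 0.162, 0.0798, 0.194 and 0.289 CPM in WT muscle and at 0.3104, 1.05, 0.757, 0.651 and 4.28 CPM in FGF21 KO. FGF21 KO replicate 5 was highest, and all 5 libraries were above WT. Its log2 fold change was 3.13 ± 0.68 (adjusted p = 0.0314). The hepatocyte score moved with it, from 1.42 to 4.85 in FGF21 KO against 0.242 to 1.46 in WT, with summed levels of 91.3 to 425.5 CPM and 57.8 to 89.7 CPM. With that score as a covariate the log2 fold change of Cyp2d9 was 0.13 ± 0.40 and that of Cyp1a2 was -0.23 ± 0.50, against 3.26 ± 0.77 without it. As a percent of the liver level, the median member was at 0.109% in FGF21 KO muscle and the 8 hepatocyte markers at 0.105% to 0.136%, against 0.0117% and 0.0114% to 0.0141% in WT.

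Cyp4f39 stood at 13.3, 23.2, 24.3, 22.9 and 22.3 CPM in UCP1 KO muscle, 12.5, 11.5, 12.1, 10.3 and 16.03 CPM in dKO, 16.2, 16.1, 14.1, 12.6 and 11.01 CPM in WT and 17.8, 16.8, 12.8, 14.1 and 11.1 CPM in FGF21 KO. In UCP1 KO 4 of 5 libraries were above all libraries of the other genotypes, and replicate 1 was not. The log2 fold change in UCP1 KO against dKO was 0.76 ± 0.16 (adjusted p = 0.151 in edgeR), which DESeq2 called (adjusted p = 0.00316). Cyp27a1, the most abundant member in muscle per kilobase, was at 89.7 ± 10.8 CPM in WT, 83.5 ± 6.901 in FGF21 KO, 76.1 ± 6.24 in UCP1 KO and 84.2 ± 10.2 in dKO.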

How the data were processed

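Tissue RNA was made into stranded poly(A) libraries, and the authors aligned reads with STAR to mm10 and counted them per gene with HTSeq; the strand option is not given in the sources used here. The deposited values were raw counts per gene symbol for each of the 80 libraries, with totals of 28691377 to 50380696. A row named unknown, at most 3.42e-05% of a library, was left out. The total limits the precision of low genes.

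Genes with a highest count above 15, a sum above 75 and at most 10 of the 20 libraries at 0 were tested per tissue with edgeR 4.0.16 (R 4.3.3; TMM factors, quasi-likelihood test, all 4 genotypes in 1 fit, prior count 2), at an adjusted p under 0.01. DESeq2 1.42.0 (limma 3.58.1 was loaded with edgeR), RLE factors, no filter, marker scores as covariates, fewer genotypes and leaving out libraries were alternatives. Single values of 5 against 5 libraries were compared by an exact two-sided permutation test (252 splits, smallest p 0.00794). The scripts were tested on simulated data. Python 3.11.15, pandas 2.3.3, scipy 1.17.1 and Biopython 1.88 were used for the rest.

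Members and lists were chosen with earlier results of these data known. Named were the 5 members with the highest level per kilobase in each tissue, called members (up to 12 in each direction), a list of bile acid, receptor target and sex-dependent genes in liver, a list of fat genes in BAT and iWAT, and members of role lists where these are summed up; Cyp20a1, Cyp26a1, Cyp2c40, Cyp2a22 and Cyp2r1, and members named for an alternative setting, were added after their values were seen. Lengths were those of the GENCODE transcript with the longest coding sequence (76 of 77 members), in place of the planned RefSeq lengths. The labels do not say which libraries came from 1 mouse, and p-values measure only the spread between these libraries.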

Additional observations from a re-analysis of the deposited data

Results flagged for a closer look

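In groups of 5 libraries, 1 library was far from the other 4 in 10 of 172 groups examined, and chance gives about 1 in 20. Far means that on a log scale its gap to the nearest was over 0.71 of the range of the group. UCP1 KO replicate 5 in BAT, by far the highest for Cyp4b1, was not among the 10 on that scale. In liver, dKO replicate 2 was highest for Cyp3a11 (3637 CPM, others 299.9 to 556), Cyp26a1 (48.3 CPM, others 1.45 to 2.56) and Cyp2c55 (8.196 CPM, others 1.48 to 2.05). FGF21 KO replicate 2 was highest in liver for Cyp2e1 (8982 CPM, others 8048 to 8200.1) and Cyp1a2 (991 CPM, others 743 to 785). In iWAT, WT replicate 4 was highest for Cyp2b10 (3.45 CPM, others 0.722 to 1.05), and FGF21 KO replicate 2 was lowest for Cyp4f18 (4.002 CPM, others 29.4 to 37.3). In BAT, dKO replicate 5 was lowest for Cyp27a1 (59.3 CPM, others 67.8 to 69.8). In muscle, UCP1 KO replicate 1 was lowest for Cyp4f39 (13.4 CPM, others 22.3 to 24.3), and FGF21 KO replicate 5 was highest for Cyp3a11 (2.97 CPM, others 0.202 to 0.425).

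Cyp2c70 in UCP1 KO against WT was higher in every BAT library (log2 fold change 2.91) and lower in every liver library (-0.56, not called). The difference between the tissues was not tested.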

How the results depend on the processing

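Of 188 recomputed counts of called members, 161 stayed within 1.5 times the count reported and 27 did not. Most reported counts were 0, and a 0 that stayed 0 is among the 161. The reported counts above 0, all in BAT, were less stable. They were 7 for UCP1 KO against WT (4 to 11 in the alternatives) and 9 over all 4 genotypes (5 to 20). For dKO against FGF21 KO the count was 4 (0 to 9), and for dKO against WT it was 9 (0 to 21). At an adjusted p under 0.05 the counts in BAT were 11 (UCP1 KO against WT), 20 (all 4 genotypes), 9 (dKO against FGF21 KO) and 21 (dKO against WT) of 42 members. Of all 15729 genes 6396, 7088, 4405 and 5805 were called there. Over all 4 genotypes there were 4 in iWAT (against 5.04% of all genes), 1 in liver (0.764%) and 6 in muscle (1.38%). For FGF21 KO against WT in muscle there were 7 (1.17%). DESeq2 gave 16 over all 4 genotypes in BAT (5964 of all 15729 genes), 6 in iWAT (1263 of 17380), 3 in liver and 10 in muscle. It also gave 3 for dKO against WT in liver, and 8 for FGF21 KO against WT and 1 for UCP1 KO against dKO in muscle. For liver and muscle its share of all genes is not given here. With only the genotypes compared, BAT had 4 for UCP1 KO against WT (2598 of all genes) and 15 for dKO against WT (3362 of all genes). With the score of muscle markers as a covariate BAT had 5 over all 4 genotypes (2737 of all genes) and 4 for dKO against WT (1694). With the hepatocyte score, added after seeing the data, BAT had 4 for UCP1 KO against WT (2549 of all genes) and 5 over all 4 genotypes (2429). It had 0 for dKO against FGF21 KO (413) and 0 for dKO against WT (511). In iWAT the lymph node score as a covariate gave 2 for UCP1 KO against WT (852 of all 17380 genes), 1 for UCP1 KO against dKO (793) and 2 over all 4 genotypes (835). The cause was not tested.

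Without 1 library, BAT had 5 to 7 calls for UCP1 KO against WT, 6 to 14 over all 4 genotypes, 3 to 8 for dKO against FGF21 KO and 4 to 13 for dKO against WT. BAT FGF21 KO replicate 1 gave the 14 and the 8. WT replicates 2, 3 and 4 and dKO replicates 2, 3 and 5 each gave 4 or 5 for dKO against WT. Over all 4 genotypes iWAT had 0 to 2 (2 without FGF21 KO replicate 2 and 1 without dKO replicate 4), liver 0 to 1 (1 without dKO replicate 1) and muscle 0 to 1, and FGF21 KO against WT in muscle had 0 to 1 (both 1 without FGF21 KO replicate 1). The other comparisons had 0 to 0.

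Of 327 recomputed fold changes of 47 named results, 275 kept direction and side of the threshold, 30 lost the call, 21 gained one and 1 reversed: Cyp1a2 in muscle, FGF21 KO against WT, at -0.23 with the hepatocyte score. No paired analysis was possible because the labels give no replicate number that pairs libraries. A description of proteins was not run. Genes under about 1 CPM rest on few counts.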
